A study of Mus musculus with 8 samples.

Results

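The genes described here make the machinery that copies DNA and the machinery that separates its copies. They comprise 39 genes chosen by symbol, 20 replication genes and 19 mitosis genes, of 24151 gene symbols in the tables. The tissue is embryonic kidney of ICR mice, whose mothers were mated at 8 weeks of age. In the CPF group the mothers received chlorpyrifos, an organophosphate insecticide, at 5 mg/kg in DMSO under the skin once a day over gestation days 7.5 to 11.5. Mothers of the DMSO group were given the same volume of the solvent alone, so both groups share the solvent and the injections. Collection of kidneys began on embryonic day E12.5 and was repeated every 2 days up to E18.5, and each of the 8 libraries is the only one of its agent and stage. No dosing fell within the sampled stages, and the labels do not say how many embryos or litters a library holds.

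As background, a dividing cell licenses its replication origins by loading the MCM2 to MCM7 ring with the help of CDC6 and CDT1, and fires them when cyclin E with its kinase, CDC45 and the GINS complex turn the ring into a moving helicase. PCNA then clamps the polymerases to the template, while ribonucleotide reductase, thymidylate synthase and thymidine kinase supply nucleotides. Cyclins A and B with CDK1 later drive entry into mitosis, kinetochore proteins such as CENPE attach chromosomes to the spindle, and CDC20 and UBE2C direct the anaphase-promoting complex that ends mitosis. In the embryonic kidney these genes mark the cycling nephron progenitors, stroma and ureteric tips, which give way to tubules and glomeruli that divide less.

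Values are TPM, a transcript level scaled to transcript length and to a sum of 1000000 in each library. Of the members, 32 reached 1 TPM in 2 or more libraries and were tested, 16 of each group. The 7 that did not pass were Tyms, Tk1, Cdc6 and Ccne2 among replication genes and Aurka, Bub1 and Kif20a among mitosis genes, with a highest value of 0.801 TPM, and Bub1 was listed at 0 in all 8 libraries. Each of the 7 has several RefSeq transcripts. Across all symbols the median level was 0.142 TPM for the 4777 genes with several transcripts and 3.64 TPM for the 19374 with 1, so these low values were not read as low expression. Cdc45, E2f1 and Birc5, which also have several transcripts, passed with levels of 0.543 to 6.77 TPM and carry the same limit, as does Gins1. The 28 members with 1 transcript ranged from 16.9 to 829.6 TPM.

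The libraries differed in ways that touch every value below. The structural RNAs Rpph1 and Rmrp together took 19.3 to 21.8% of TPM in the CPF libraries and rose from 19.6% at E12.5 to 41.8% at E18.5 in the DMSO libraries, which left 53.3% of TPM for coding transcripts in DMSO E18.5 against 73.9% in CPF E18.5. A second scale, on which the coding transcripts of each library have the same sum, is therefore given where it changes a direction. Kidney identity genes were present in every library, with 8 of 8 tested and a summed level of 211 to 451 TPM. Markers of other cells that can divide also differed. The 15 erythroid markers in the tables, with Hbb-bt and Hba-a1 listed at 0, summed to 265 to 37080 TPM in CPF libraries and 178 to 8213 TPM in DMSO libraries. The 13 liver markers, with Ahsg at 0, summed to 218 to 6228 TPM in CPF, against 23.0 to 1043 TPM in DMSO libraries. The 8 skeletal muscle markers spanned 18.6 to 663 TPM and 5.89 to 203 TPM, and the 7 germ cell markers reached 292 TPM in CPF E14.5 against 10.4 TPM in DMSO E14.5. The 8 adrenal cortex markers summed to 39.2 to 679 TPM in CPF libraries and 15.6 to 61.9 TPM in DMSO libraries, and the 8 macrophage markers to 106 to 215 TPM and 53.3 to 104 TPM, with none of either list at 0. Their part in the results below was not tested. In bulk tissue, fewer cells of a type and less RNA per cell cannot be told apart.

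Short motifs that cell-cycle transcription factors are known to bind were searched in the members' promoters. The RefSeq promoter table (GRCm38.p6, 250 bases before to 50 after each start) held 32 of the 39 members, 16 per group. Aurkb, Ccna2, Ccne2, Gins1, Gins2, Kif20a and Mcm4 had no entry. A CHR element, TTTGAA, occurred on either strand in 12 of 16 mitosis promoters and 2 of 16 replication promoters, against 17.9% of all 32851 promoters in the table and 13.8% of the 9670 tested genes with an entry. The E2F motif was searched as TTCCCGC and also as TTCGCGC, in a further form as TTGCCGC and in the last form as TTGGCGC, with overlapping matches counted as 1. It occurred in 8 of 16 replication promoters and 3 of 16 mitosis promoters, against 9.57% of all promoters and 17.9% of tested genes. CCAAT was found in 10 and 15 of 16, against 37.4% and 41.1%. These are matches of letters, with no test and no measure of binding.

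The 5 windows of 180 bases ending just before the start show both layouts, with matches in capitals on whichever strand they occur (so CCAAT may read ATTGG, and TTTGAA may read TTCAAA). Ccnb2 and Top2a are mitosis genes with CHR and CCAAT matches, Cdk1 holds all 3 kinds, and Mcm6 and Rrm1 are replication genes with E2F and CCAAT matches and no CHR. Matches outside the windows are not shown, among them a further CHR match of Ccnb2 that begins at base 5 after the start.
Ccnb2 (chr9:70421555-70421734, minus strand): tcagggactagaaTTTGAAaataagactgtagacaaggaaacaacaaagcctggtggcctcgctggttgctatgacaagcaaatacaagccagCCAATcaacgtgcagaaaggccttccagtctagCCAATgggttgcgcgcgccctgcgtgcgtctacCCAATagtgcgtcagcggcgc
Top2a (chr11:99024190-99024369, minus strand): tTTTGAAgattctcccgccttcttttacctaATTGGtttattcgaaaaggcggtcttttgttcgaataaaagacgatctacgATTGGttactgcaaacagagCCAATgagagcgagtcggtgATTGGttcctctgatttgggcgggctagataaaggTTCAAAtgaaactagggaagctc
Cdk1 (chr10:69352913-69353092, minus strand): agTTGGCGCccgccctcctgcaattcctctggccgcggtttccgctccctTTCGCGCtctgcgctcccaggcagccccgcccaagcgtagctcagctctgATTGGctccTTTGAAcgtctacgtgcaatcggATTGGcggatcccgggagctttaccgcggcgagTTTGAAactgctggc
Mcm6 (chr1:128359706-128359885, minus strand): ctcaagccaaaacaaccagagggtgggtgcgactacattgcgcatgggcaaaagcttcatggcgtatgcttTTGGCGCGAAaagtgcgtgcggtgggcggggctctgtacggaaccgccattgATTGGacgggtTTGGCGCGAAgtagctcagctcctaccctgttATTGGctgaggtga
Rrm1 (chr7:102441515-102441694, plus strand): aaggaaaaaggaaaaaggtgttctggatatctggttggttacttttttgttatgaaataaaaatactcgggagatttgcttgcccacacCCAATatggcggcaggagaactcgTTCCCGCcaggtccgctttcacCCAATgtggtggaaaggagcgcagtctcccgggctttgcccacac
Among these 5, Rrm1 and Top2a were called lower over the stages, and Mcm6, Cdk1 and Ccnb2 were not called, as given below. Both layouts thus include a called gene and an uncalled one, and a relation of motifs to the course was not tested.

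Most tested replication genes fell as the kidney developed. In a fit of log2(TPM + 1) over embryonic day with the agent as a term, 10 of the 16 tested were called lower and 0 higher (limma, Benjamini-Hochberg adjusted p under 0.05). Over all tested genes 6.72% were called lower and 5.79% higher. The median slope of the 16 was -0.18 log2 units per day, against -0.03 for all 13677 genes, and all 16 slopes were below 0. The calls leaned on the latest stage: without the DMSO E18.5 library 3 of 16 were called and without CPF E18.5 4 of 16, with 1086 and 886 genes called in either direction in place of 1711. Over 16 alternative settings Rrm1, Mcm10 and Ccne1 were always called, while the calls of Mcm2, Pcna and Rrm2 were lost under 8, 7 and 7 and those of Gins2, Mcm7, Mcm4 and Mcm3 under 4, 3, 2 and 1.

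**Figure D1:**
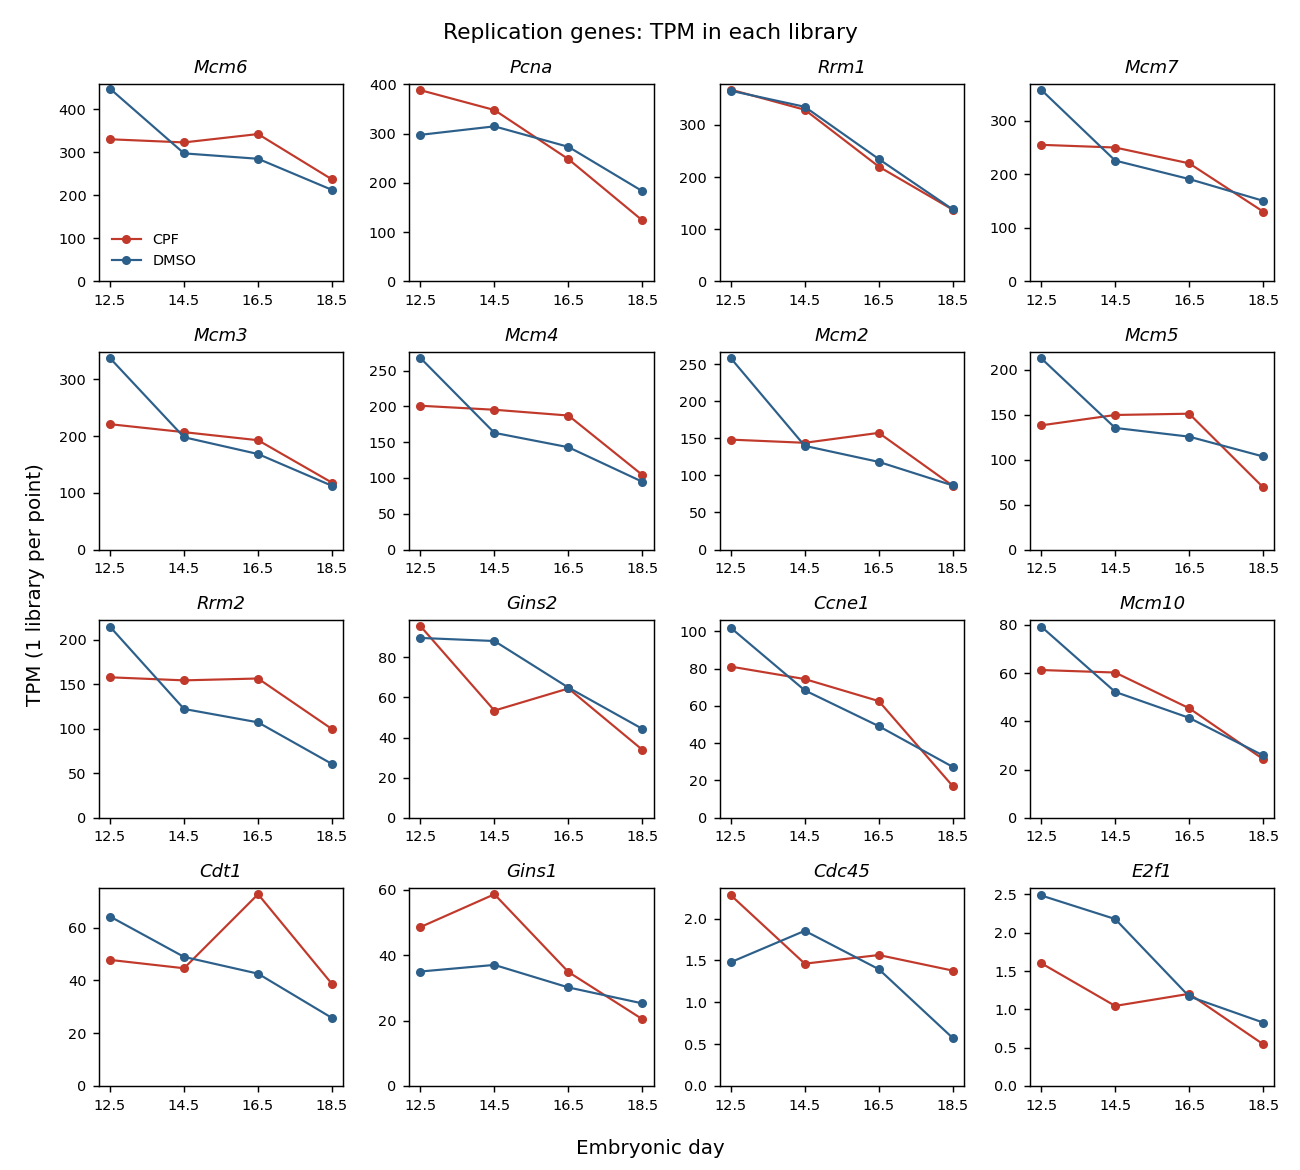
TPM (vertical axis, from 0, a separate scale per gene) against embryonic day for the 16 tested replication genes, in order of mean level, with 1 library per point, CPF in red and DMSO in blue. In both agents every gene was lower at E18.5 than at E12.5 in TPM, and the MCM genes of the DMSO group started highest at E12.5.

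Among the MCM genes, which encode the helicase ring, Mcm6 had the highest level in every library. In stage order it was at 331, 323, 343 and 237 TPM in CPF, against 448, 298, 285 and 213 TPM in DMSO. Its slope of -0.12 ± 0.040 (SE) log2 units per day was not called (limma adjusted p = 0.0828). The DMSO E12.5 value stood apart above the rest, and the first 3 CPF values lay within a narrow range. The same outline held for Mcm3, at 221, 207, 193 and 118 TPM in CPF, against 337, 198, 168 and 112 TPM in DMSO, which fell by 0.19 ± 0.040 log2 units per day (limma adjusted p = 0.0141). Mcm7 stood at 255, 249.7, 220.2 and 130.2 TPM in CPF, against 357, 225, 191 and 150.4 TPM in DMSO and was called (adjusted p = 0.0169). For Mcm4 the levels were 201, 195, 187 and 104 TPM in CPF, against 268, 163, 143 and 94.7 TPM in DMSO (adjusted p = 0.0177). In all 3 of these genes the widest DMSO step was the one to E14.5 and the widest CPF step the one after E16.5. Mcm2 was at 148, 144, 157 and 85.9 TPM in CPF, against 258, 139.7, 118 and 86.4 TPM in DMSO and was called (adjusted p = 0.0336). Mcm5, at 138, 149.6, 151 and 69.2 TPM against 213, 135, 125 and 103 TPM, missed the threshold (adjusted p = 0.0543). The order Mcm6, Mcm7, Mcm3 from high to low held in all 8 libraries, and the highest of the 6 levels was 2.11 to 3.43 times the lowest, while their proteins form 1 ring.

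Mcm10, which helps to activate the loaded helicase, was at 61.3, 60.2, 45.4 and 24.3 TPM in CPF, against 79.3, 52.2, 41.4 and 25.8 TPM in DMSO, and fell by 0.23 ± 0.040 log2 units per day (limma adjusted p = 0.0065). Gins2, a GINS subunit, was at 95.6, 53.5, 64.5 and 33.9 TPM in CPF, against 89.7, 88.2, 64.9 and 44.3 TPM in DMSO and was called lower (adjusted p = 0.0201). Its log2 ratio of CPF to DMSO was -0.71 at E14.5, and 0.09 and -0.01 at the stages on either side. Gins1, in the same complex, had its highest level in CPF E14.5, at 58.7 TPM, and its lowest in CPF E18.5, at 20.4 TPM (adjusted p for the slope 0.0731). Cdt1, the licensing factor, peaked in CPF E16.5 at 72.7 TPM and was lowest in DMSO E18.5 at 25.8 TPM, with a slope that was not called (adjusted p = 0.238). Cyclin E1, from Ccne1, had the steepest fall of the group. It went from 81.1, 74.4 and 62.6 to 16.9 TPM in CPF and from 102, 68.4 and 49.1 to 27.3 TPM in DMSO, a slope of -0.32 ± 0.056 log2 units per day (limma adjusted p = 0.0068).

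Of the genes that act at the fork and supply nucleotides, Rrm1, the large subunit of ribonucleotide reductase, gave the smallest p. Its levels were 368, 329, 220.1 and 138 TPM in CPF, against 365, 335, 235 and 138 TPM in DMSO, nearly the same course in both agents. It fell by 0.24 ± 0.037 log2 units per day (limma adjusted p = 0.0045). Rrm2, the small subunit of the same enzyme, followed another course, with 158, 155, 157 and 99.7 TPM in CPF, against 215, 122, 107 and 60.4 TPM in DMSO (adjusted p = 0.0292). At E12.5 Rrm2 was lower in CPF than in DMSO, and at the other stages it was higher. Pcna, the sliding clamp, was at 388, 348, 248 and 124 TPM in CPF, against 297, 315, 273 and 183 TPM in DMSO and was called (adjusted p = 0.0288). CPF was the higher of the pair for Pcna at the first 2 stages and the lower at the last 2.

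**Figure D2:**
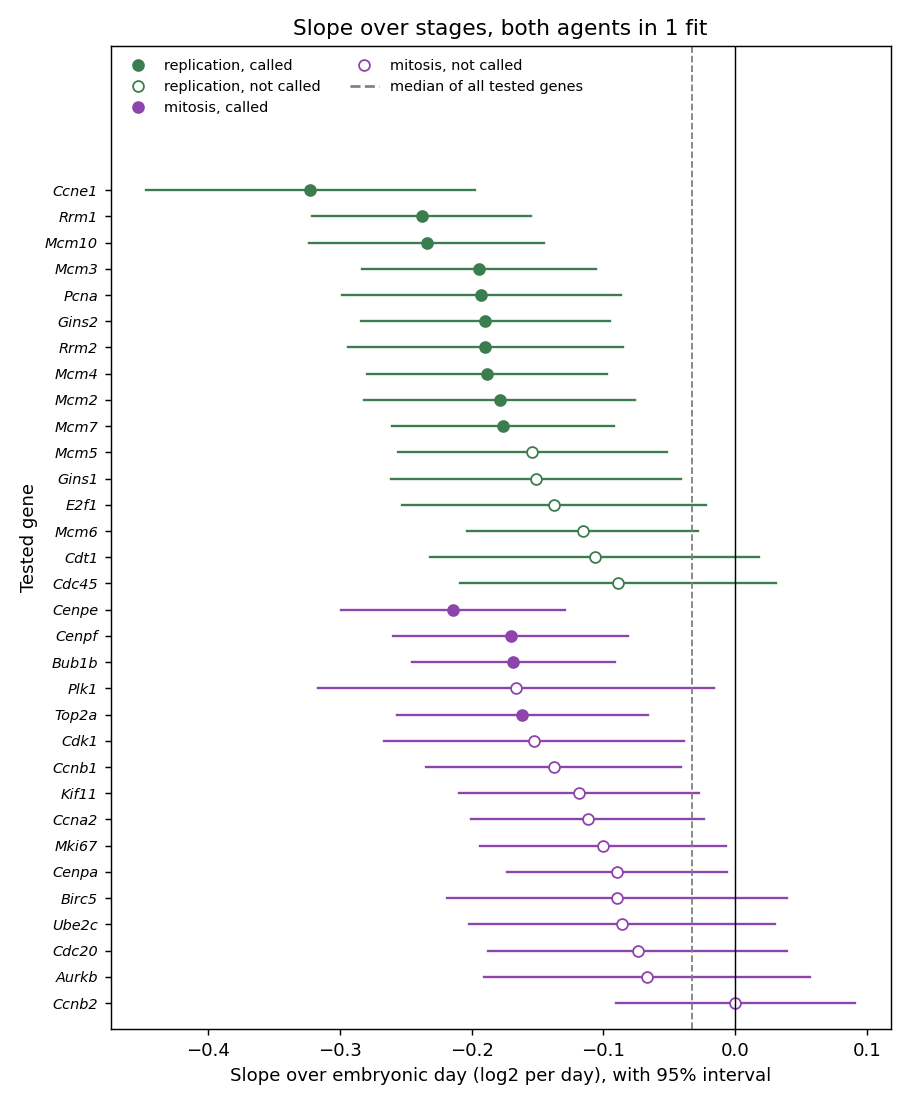
Slope over embryonic day in log2 units per day (horizontal axis, points) with 95% intervals (lines) for the 32 tested genes, filled where called at an adjusted p under 0.05. The 10 called replication genes and 4 called mitosis genes lie left of the median of all tested genes, the dashed line at -0.03, and Ccnb2 lies at 0.00.

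Fewer mitosis genes were called. Of the 16 tested, 4 were called lower over embryonic day and 0 higher, beside 6.72% of all genes called lower, and their median slope was -0.12 log2 units per day. Cenpe, Bub1b, Cenpf and Top2a were the 4. The difference between the 2 groups was not tested. The count was 1 without DMSO E18.5, 2 without CPF E12.5, CPF E18.5 or DMSO E14.5, and 7 without DMSO E12.5. In these fits, in the same order, 1086, 554, 886, 1027 and 1737 of all genes were called in either direction, in place of 1711.

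**Figure D3:**
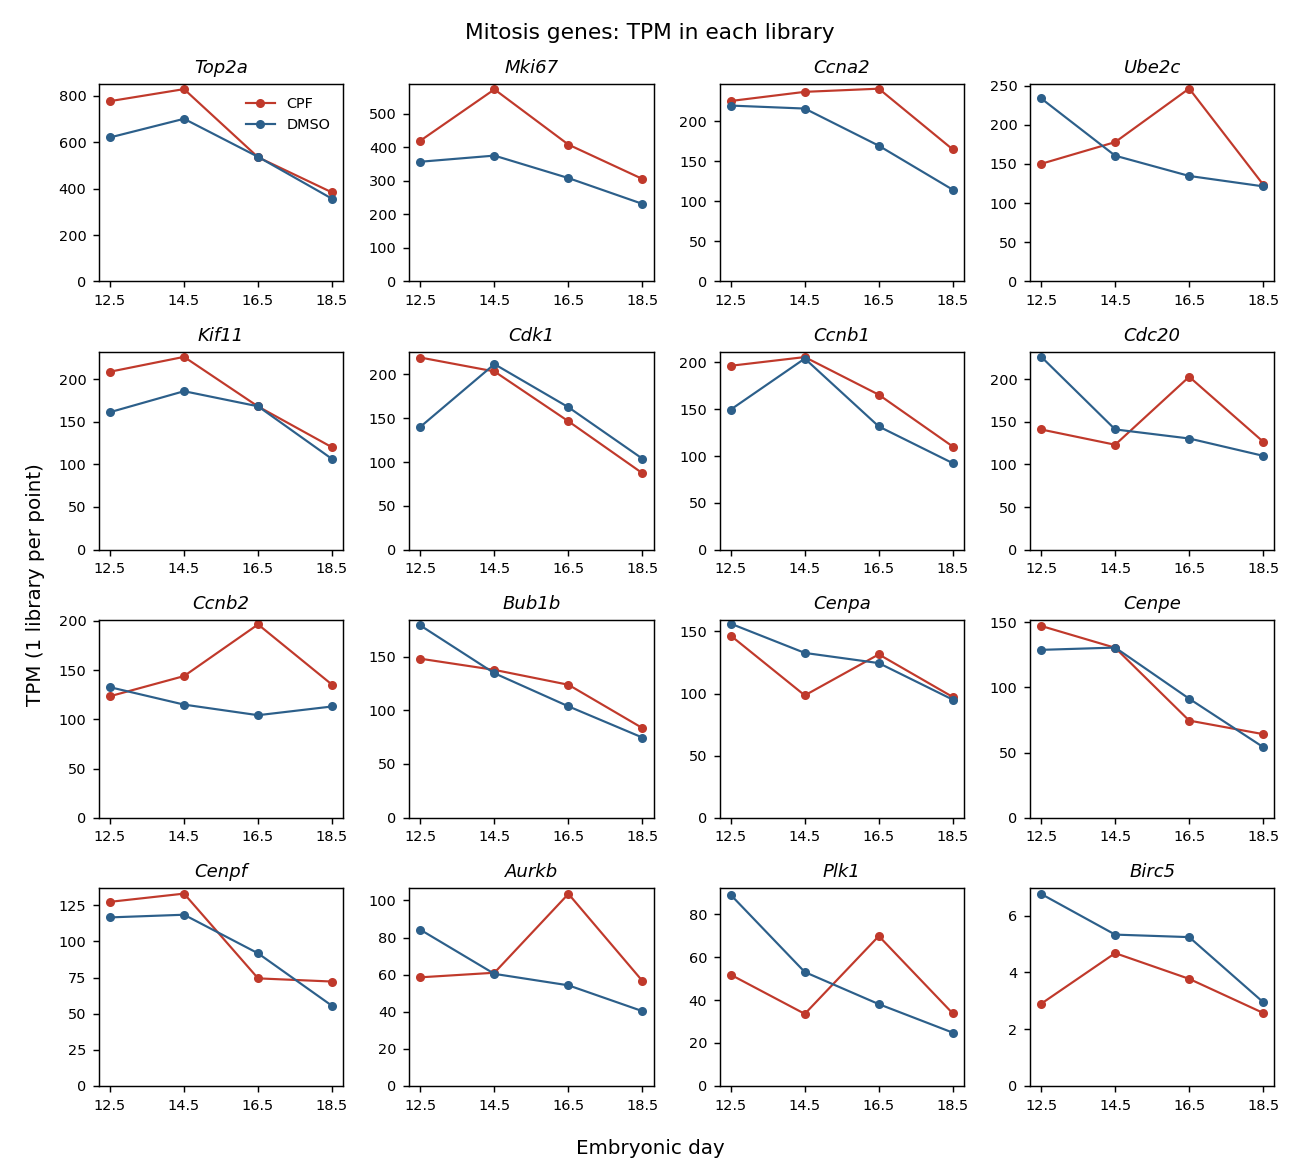
TPM (vertical axis, from 0, a separate scale per gene) against embryonic day for the 16 tested mitosis genes, in order of mean level, with 1 library per point, CPF in red and DMSO in blue. Several genes of the CPF group, among them Ccnb2, Cdc20, Ube2c, Aurkb and Plk1, have their highest CPF value at E16.5, where the DMSO value is lower.

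Cenpe, a kinetochore motor, was at 147, 130.4, 74.5 and 64.1 TPM in CPF, against 129, 130.5, 91.3 and 54.2 TPM in DMSO, and fell by 0.21 ± 0.038 log2 units per day (limma adjusted p = 0.0076). Cenpf, another kinetochore protein, was at 127, 133, 74.4 and 72.2 TPM in CPF, against 117, 118, 91.8 and 55.4 TPM in DMSO (adjusted p = 0.0244). In both agents each of these genes was higher at the first 2 stages than at the last 2. Bub1b, a spindle checkpoint kinase, was at 148, 138, 124 and 83.4 TPM in CPF, against 179, 134, 104 and 74.6 TPM in DMSO (adjusted p = 0.0140). Top2a, the topoisomerase that untangles sister chromatids, had the highest level of all members, with 778, 829.6, 536 and 384 TPM in CPF, against 621, 702, 538 and 357 TPM in DMSO (adjusted p = 0.0366). Its maximum was at E14.5 in both agents, and its call was lost under 10 of 16 alternative settings, those of Cenpf and Bub1b under 6 and 1 and that of Cenpe under 0.

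The 12 other tested mitosis genes were not called. Mki67, the proliferation antigen, was at 419.8, 573, 408 and 306 TPM in CPF, against 357, 375, 308 and 231 TPM in DMSO, above DMSO at each stage on the TPM scale. Cyclin A2, from Ccna2, was at 225, 237, 241 and 165 TPM in CPF, against 219.7, 216, 169.6 and 115 TPM in DMSO, also with CPF above DMSO each time on that scale. Cdk1, the mitotic kinase, was at 219, 203, 146 and 87.2 TPM in CPF, against 140.2, 212, 162 and 104 TPM in DMSO, and only at E12.5 was CPF the higher of the pair. Ube2c, the ubiquitin-conjugating partner of the anaphase-promoting complex, was at 150.2, 178, 246 and 124 TPM in CPF, against 234, 161, 135 and 121 TPM in DMSO. Its peak came at E16.5 in CPF and at E12.5 in DMSO. Cdc20, its activator, Aurkb, the chromosomal passenger kinase, and Plk1, the polo-like kinase, shared that outline. Plk1 was at 51.8, 33.5, 69.8 and 33.7 TPM in CPF, against 89.0, 53.02, 38.1 and 24.8 TPM in DMSO. The B cyclins parted: Ccnb1 had a slope of -0.14 ± 0.044 log2 units per day (limma adjusted p = 0.0656), while Ccnb2 had a slope of 0.00, with 123, 144, 196 and 135 TPM in CPF, against 133, 115, 104 and 113 TPM in DMSO. The TPM ratio of Ccnb1 to Ccnb2 went from 1.59 to 0.814 in CPF and from 1.13 to 0.817 in DMSO, by way of 1.78 at E14.5. Kif11, the spindle motor, Cenpa, the centromeric histone, and Birc5, which encodes survivin, had slopes of -0.12, -0.09 and -0.09 log2 units per day.

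The last stage was also set against the first. From E12.5 to E18.5, in a fit with stage and agent as terms, 10 of 16 replication genes and 2 of 16 mitosis genes were called lower and 0 of either higher, beside 3.73% of all genes called lower. The median changes were -1.17 and -0.69 log2 units, against -0.21 for all genes. Ccne1 fell by 2.03 ± 0.33 log2 units (limma adjusted p = 0.0024) and Rrm1 fell by 1.41 ± 0.27 (adjusted p = 0.0076). Of the called mitosis genes, Cenpe fell by 1.21 ± 0.28 (adjusted p = 0.0207) and Bub1b fell by 1.04 ± 0.28 (adjusted p = 0.0404). These counts differed between settings: the replication count was 5 after quantile normalization, 3 without limma's trend and robust options and 2 without a filter, and the mitosis count 1, 0 and 0. All-gene counts of this contrast under these settings are not given here, so the losses are not read as particular to the members. For the slope the same settings called 2051, 1418 and 961 of all genes, in place of 1711. Without the E14.5 or the E16.5 pair of libraries the mitosis count was 1.

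The steps between stages differed by agent as a description. Replication genes of the DMSO group changed by a median of -0.58 log2 units from E12.5 to E14.5, -0.24 to E16.5 and -0.58 to E18.5, while the CPF medians were -0.07, -0.02 and -0.80. In the last step all 16 were lower in both agents, on the TPM and the coding scale, and 15 of 16 in CPF and 13 of 16 in DMSO after quantile normalization. For mitosis genes the medians were -0.11, -0.32 and -0.53 in DMSO and 0.06, -0.20 and -0.54 in CPF. All tested genes had medians of -0.14, -0.04 and -0.33 in DMSO and 0.00, 0.07 and 0.06 in CPF. On the coding scale the DMSO medians were -0.47, -0.10 and -0.33 for replication genes and -0.01, -0.18 and -0.29 for mitosis genes. Those of all genes were -0.07, 0.10 and -0.12 on that scale. Summed over the 20 replication genes, TPM went from 2546 to 1242 in CPF and from 3135 to 1292 in DMSO, 2.05-fold and 2.43-fold lower. On the coding scale the folds were 2.06 and 1.72, so that CPF and DMSO change order with the scale. For the 19 mitosis genes the sums went from 3145 to 1968 TPM in CPF and from 3003 to 1697 TPM in DMSO, 1.60-fold and 1.77-fold lower, or 1.60-fold and 1.26-fold on the coding scale.

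The ratio of the replication sum to the mitosis sum is the same on either scale. It was 0.810, 0.722, 0.747 and 0.631 in CPF and 1.04, 0.757, 0.797 and 0.761 in DMSO, in stage order. CPF was below DMSO at each of the 4 stages, by least at E14.5. Sums weigh the most abundant genes most, and Mki67 alone was at 573 TPM in CPF E14.5 and 375 TPM in DMSO E14.5. By gene, the order at E14.5 was the reverse: the median log2 ratio of CPF to DMSO was 0.12 for replication and 0.02 for mitosis genes. The DMSO E12.5 library was the only one in which replication genes outweighed mitosis genes.

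Whether CPF changed these genes across stages was asked with stage and agent in 1 fit. Of the 32 tested members 0 were called, beside 0.161% of all genes (22 of 13677), and 0 of the 32 had an unadjusted p under 0.05 in limma, beside 1306 of all genes. With limma run without its trend and robust options the count of called members was also 0, beside 4 of all genes. The median difference, CPF minus DMSO, was -0.04 log2 units for replication genes and 0.10 for mitosis genes, against 0.15 for all genes. On the coding scale these were -0.21, -0.08 and 0.01, so that the mitosis median changes sign, as it does after quantile normalization (-0.10). The largest differences were 0.41 log2 units for Mki67 (95% interval -0.02 to 0.85) and -0.42 for Birc5 (-1.06 to 0.22). For Rrm1 the interval was -0.45 to 0.39, and a p that misses the threshold does not show equal levels. A difference in slope between agents was likewise called for 0 of 32 members and 0.000% of all genes (limma). At an unadjusted p under 0.05 there were 2 members, Rrm2 (0.18 ± 0.068 log2 units per day, less steep in CPF) and Plk1 (0.25 ± 0.11), beside 3615 of all genes.

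At single stages each comparison sets 1 CPF library against 1 DMSO library and has no replicate check. On the log2(TPM + 1) scale 0 of the 32 tested members passed a 2-fold difference at any stage, beside 8.54, 8.34, 10.6 and 22.4% of all genes at the 4 stages in order. In TPM itself 3 low members, each with several transcripts, were more than 2-fold apart: Birc5 at E12.5 (2.89 TPM in CPF, 6.77 in DMSO), E2f1 at E14.5 (1.04 and 2.18) and Cdc45 at E18.5 (1.38 and 0.571). At E12.5 the replication genes had a median log2 ratio of -0.42, against -0.12 for all genes. Of these, 5 of 16 were higher in CPF and 11 lower, beside 40.4% of all genes higher. In the same 2 libraries the erythroid markers summed to 37080 TPM in CPF and 8213 TPM in DMSO and the muscle markers to 663 and 197 TPM. Nephron progenitor, renal stroma and ureteric bud tip markers, with 1 stroma marker listed at 0, summed to 383, 476 and 151 TPM in CPF. In DMSO they summed to 519, 679 and 211 TPM. The part of all these markers in the ratios of the replication genes was not tested. The lowest there was Mcm2, at -0.80, and the MCM genes from Mcm2 to Mcm7 lay between -0.80 and -0.41, while Gins1, Cdc45, Pcna and Gins2 had ratios of 0.46, 0.40, 0.38 and 0.09. On the coding scale 11 of 16 were again lower, and 12 of 16 after quantile normalization. Mitosis genes split evenly at E12.5, 8 higher and 8 lower, from -0.996 for Birc5 to 0.64 for Cdk1.

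At E14.5 the medians were close to 0, at 0.12 for replication and 0.02 for mitosis genes, against 0.03 for all genes. Higher in CPF in TPM were 11 of 16 replication and 10 of 16 mitosis genes, beside 52.6% of all genes. On the coding scale 10 and 7 of 16 were higher, with medians of 0.06 and -0.04 against -0.02 for all genes. At E16.5 13 of 16 replication genes were higher in CPF in TPM, beside 61.8% of all genes, with a median of 0.20 against 0.13 for all genes, but 8 of 16 on the coding scale. The liver markers summed to 6228 TPM in CPF E16.5 and 88.2 TPM in DMSO E16.5 and the adrenal cortex markers to 679 and 61.9 TPM, and their part was not tested. Mitosis genes had a median of 0.29 at E16.5, with 10 of 16 higher in CPF in TPM, beside 61.8% of all genes. On the coding scale 9 of 16 were higher, with a median of 0.08 against -0.03 for all genes. Highest in TPM were Aurkb, Ccnb2, Ube2c, Plk1 and Cdc20, at 0.92, 0.91, 0.87, 0.86 and 0.63. The 6 below 0 were Birc5, Cenpf, Cenpe and Cdk1, at -0.39, -0.30, -0.29 and -0.15, and Top2a and Kif11, just below 0. In TPM 11 of 16 replication genes were lower in CPF at E12.5 and higher at E16.5, as were 39.7% of all genes. On the coding scale this held for 7 of 16.

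**Figure D4:**
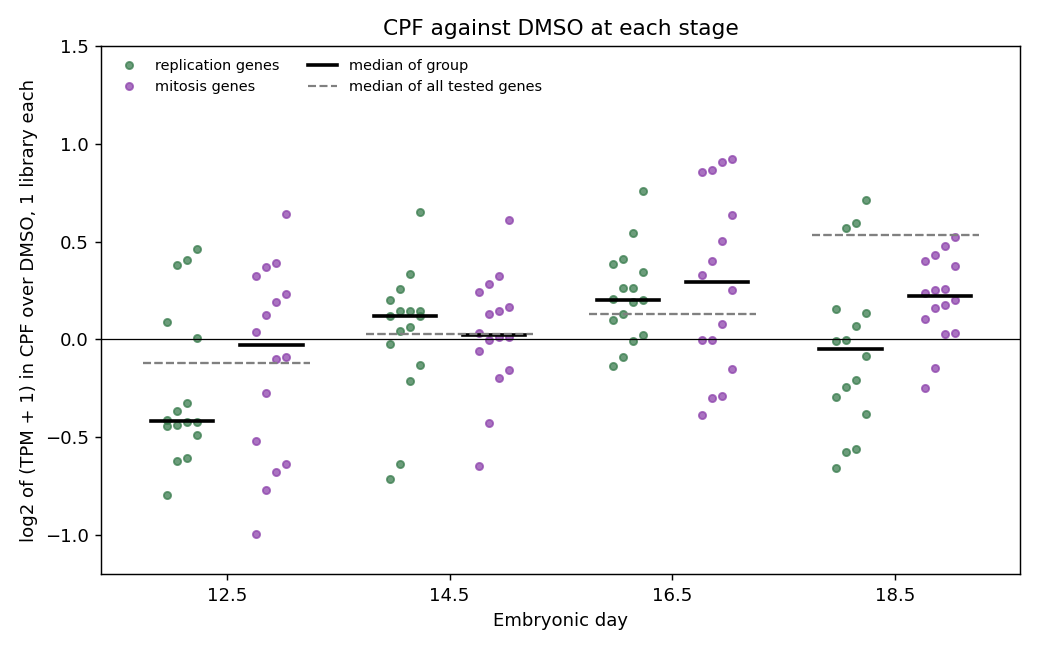
The log2 ratio of CPF to DMSO, from TPM + 1 with 1 library each (vertical axis), at each embryonic day for the 16 tested replication genes (green) and 16 tested mitosis genes (purple), with group medians (black bars) and the median of all tested genes (dashed). At E18.5 all 16 mitosis genes lie below the median of all genes, 0.53, though 14 lie above 0 in TPM, beside 82.4% of all genes, and 2 of 16 do so on the coding scale.

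At E18.5 the members stood low beside the rest of the transcriptome. The median of all genes was 0.53, beside the Rpph1 and Rmrp shares given above, and it was 0.15 on the coding scale and -0.01 after quantile normalization. Mitosis genes had a median of 0.22 in TPM, -0.25 on the coding scale and -0.40 after quantile normalization. All 16 were below the median of all genes under each of the 3 scalings. Replication genes had medians of -0.05, -0.51 and -0.63, with 13, 14 and 14 of 16 below that of all genes. Rrm2 had the highest ratio of the group, 0.71, and Ccne1 the lowest, -0.66. Beside this, the 10 proximal tubule markers, with Slc22a8 listed at 0, summed to 5035 TPM in CPF E18.5 and 934 TPM in DMSO E18.5. The 10 nephron progenitor markers, of which 10 were tested and 0 listed at 0, summed to 307 and 421 TPM. Liver, podocyte and endothelium markers, with 1 of each list at 0, summed to 1241, 547 and 279 TPM in CPF E18.5. In DMSO E18.5 they summed to 76.7, 104 and 89.3 TPM. Lower in CPF E18.5 were the ureteric bud tip markers, at 76.7 against 131 TPM, and the renal stroma markers, at 222 against 249 TPM. Their part in the lower standing of the members was not tested.

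Across the 4 stages Mki67, Ccna2 and Ccnb1 were higher in CPF each time in TPM, 3 of 16 mitosis genes beside 13.8% of all genes, but only Ccna2 was on the coding scale and none of the 16 after quantile normalization. Birc5 was lower in CPF at all 4 stages under each of the 3 scalings, beside 3.00% of all genes lower at all 4 stages in TPM. Cenpa was lower at all 4 on the coding scale and after quantile normalization, as was E2f1 among replication genes. Rrm1 was lower at all 4 after quantile normalization only. The share of all genes lower at all 4 stages was taken in TPM alone, so these calls on other scales have no share beside them. The levels of Birc5 were 2.89, 4.68, 3.77 and 2.57 TPM in CPF, against 6.77, 5.33, 5.24 and 2.95 TPM in DMSO, and it has 2 RefSeq transcripts.

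The ratios by stage were set against the base composition and the length of the transcripts. Over the 28 members with 1 transcript, which range from 42.2% GC for Kif11 to 58.8% for Cdt1, the log2 ratio of CPF to DMSO had a Pearson correlation with GC content of -0.74 at E12.5, -0.44 at E14.5, 0.58 at E16.5 and -0.11 at E18.5. The same correlations over 12170 genes were -0.27, -0.19, 0.15 and 0.02. With log2 transcript length the members' correlations were 0.44, 0.25, -0.61 and 0.11, against -0.15, 0.03, 0.16 and 0.28 over all these genes. GC content and log2 length had a correlation of -0.44 among the members. The points of a stage share the same pair of libraries, so no p is given. Plk1, Cdc20 and Mcm2, at 56.0, 55.6 and 55.5% GC, had log2 ratios of -0.77, -0.68 and -0.80 at E12.5 and of 0.86, 0.63 and 0.41 at E16.5. Kif11, Cenpe and Cenpf, at 42.2, 42.9 and 43.3% GC, had 0.37, 0.19 and 0.13 at E12.5 and 0.00, -0.29 and -0.30 at E16.5.

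**Figure D5:**
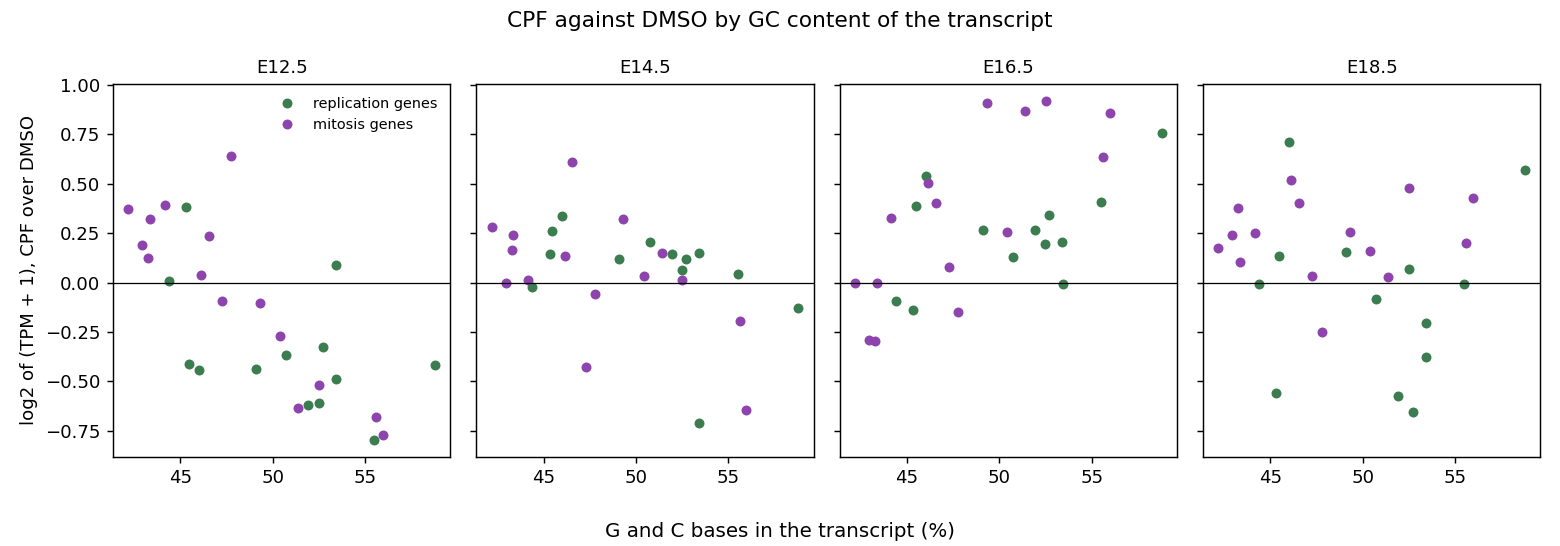
The log2 ratio of CPF to DMSO (vertical axis) against the percentage of G and C bases in the transcript (horizontal axis) for the 28 tested members with 1 transcript, 1 panel per stage and 1 pair of libraries per panel. The points fall from left to right at E12.5 (r = -0.74) and rise at E16.5 (r = 0.58).

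After each library was corrected by a cubic in GC content fitted over all these genes, the members' correlations were -0.52, -0.13, 0.36 and -0.16. The median ratios of the 13 replication genes in this check were then -0.39, 0.14, 0.18 and -0.05, and those of the 15 mitosis genes -0.08, 0.03, 0.44 and 0.24. The course over embryonic day was called for 11 of 13 replication and 5 of 15 mitosis genes after the correction, and CPF minus DMSO for 0. With the correction 1957 of all 12170 genes were called over embryonic day in either direction, against 1711 of 13677 in the main fit. For CPF minus DMSO it called 26 of the 12170. The part of GC content or length in the differences between agents was otherwise not tested.

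Other genes of the same pathways, in 12 lists of 210 genes with 170 tested, were tested over embryonic day in the same fit. In all, 44 of 170 were called lower, beside 6.72% of all genes, and 4 higher, beside 5.79%. In the lists closest to replication, 9 of 12 tested genes of origin licensing and firing were called lower, among them Wdhd1 (-0.26 ± 0.042 log2 units per day), Clspn and Orc1, and 8 of 21 polymerase and fork genes, among them Rpa2, Dna2 and Prim2. Of the nucleotide supply list 3 of 11 were called lower, Ctps, Umps and Dck. The G1 to S list had 3 of 14 lower, namely Ccnd2 (-0.27 ± 0.043), Cdc25a and Cdk4, and the MuvB and FOXM1 list 2 of 5, Mybl2 and Rbbp4. In the lists closest to mitosis, 3 of 9 mitotic entry genes (Cks1b, Ccnf and Cdc25c), 7 of 29 kinetochore and checkpoint genes (among them Zwint, -0.26 ± 0.036, Cdca8 and Nuf2), 4 of 19 condensin and cohesin genes and 4 of 18 spindle and cytokinesis genes were called lower. Of 13 anaphase-promoting complex genes 0 were called, with 7 at an unadjusted p under 0.05 in limma, beside 4015 of all 13677 genes. The genes called higher were Cdkn2c, an inhibitor of CDK4 and CDK6, at 0.27 ± 0.065, and the p53 targets Perp, Ccng1 and Fas at 0.56 ± 0.096, 0.15 ± 0.040 and 0.31 ± 0.086, while Bax, in the same list, was called lower at -0.14. For CPF minus DMSO and for the difference in slope, 0 of the 170 were called (limma).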

How the data were processed

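Total RNA of embryonic kidney was sequenced, 1 library per agent and stage, from 2 μg of RNA per the labels' protocols. Trimmomatic, STAR and the mouse build mm10 are named in the submitters' processing notes, without versions, and the read assignment method was not given in the sources used here. Each deposited table holds TPM by RefSeq transcript, computed by the authors. TPM keeps no depth. The low values fell on steps that put 1 read in 1 kb of transcript at 0.0609 to 0.105 TPM, with 56.6 to 64.6% of them whole within 0.02.

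Transcripts were summed per symbol. limma 3.58.1 (R 4.3.3), with trend and robust options, was run on log2(TPM + 1) for the 13677 genes with at least 1 TPM in at least 2 libraries, as planned for normalized values. On the log2(TPM + 1) scale the fold changes of low genes come out too small. The slope was fitted with the agent as a term (5 residual degrees of freedom), CPF minus DMSO and E18.5 minus E12.5 with stage and agent (3), and the difference in slope with an agent by day term (4). Adjusted p-values are limma's with Benjamini-Hochberg over all tested genes, and genes under 0.05 are called. The p-values rest on departures from a line, or on how the difference between agents varies over stages, and do not measure the spread between animals. The fits were tested on simulated data over the same 13677 genes. Per size 66 or 67 genes with a mean log2 level above 2 were changed, and the other genes were flat. The scatter was that left after stage and agent terms, so it held no departure from a line shared by both agents, as real slopes can. Slopes of 0.25 and 0.5 log2 units per day were called for 43.3 and 86.6% of the changed genes. For agent differences of 1 and 2 log2 units the shares were 5.97 and 62.7%. They were 17.9 and 83.3% for slope differences of 0.5 and 1, and 44.8 and 89.4% for changes of 2 and 4 between the end stages.

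Library values are given for members called in a comparison (up to 8 per comparison and group), the 4 with the highest mean and those with the highest and lowest ratio at E18.5 in each group, and for further members. Of the other lists, up to 3 called genes each are named, and Bax was added after its value was seen. Members and lists were chosen with earlier results of these data known. Promoters are from the RefSeq table of GRCm38.p6, and transcript GC content is from GENCODE M21 sequences through RefSeq links. The alternatives were quantile normalization, scaling to coding transcripts, a pseudocount of 0.1, no filter, a filter of 5 TPM in 4 libraries, the highest transcript per gene, limma without trend and robust options, other terms for stage, leaving out each library or stage pair, and, added after the data were seen, a GC correction.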

Additional observations from a re-analysis of the deposited data

Results flagged for a closer look

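The 20 replication genes together were lower in CPF than in DMSO at E12.5, with a log2 ratio of summed TPM of -0.30, and higher at E16.5, with 0.20, so the direction differed between stages. With 1 library per stage and agent this difference was not tested. Scaled to coding transcripts the ratios were -0.27 and -0.01, so the higher value at E16.5 was not seen on that scale.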

How the results depend on the processing

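Each agent and stage had 1 library, and a single read on a transcript of 1 kb stood for 0.0609 to 0.105 TPM. Over embryonic day, 10 replication and 4 mitosis genes were called, 6 and 2 after quantile normalization, and 2 mitosis genes without a filter. Of all genes 1711 were called in either direction, 2051 after quantile normalization and 961 without a filter. Leaving out single libraries gave 3 (without DMSO E18.5) to 11 (without CPF E16.5) replication genes and 1 (without DMSO E18.5) to 7 (without DMSO E12.5) mitosis genes. Without DMSO E18.5, CPF E16.5 and DMSO E12.5 the calls over all genes, in either direction, were 1086, 1522 and 1737. For E18.5 minus E12.5, 10 replication genes became 5 after quantile normalization, 2 without a filter and 3 without limma's trend and robust options. The 2 mitosis genes became 1, 0 and 0 under those settings, 4 under the stricter filter, 1 without the E14.5 or E16.5 pair, and 4 under the GC correction, chosen after seeing the data. All-gene counts for E18.5 minus E12.5 under these settings are not given here. The causes were not tested. No called value changed sign, and counts of 0 for CPF minus DMSO and for the difference in slope stayed at 0 under every alternative run. For CPF minus DMSO, 0 of all genes were called after quantile normalization, without a filter and with the other terms for stage. The difference in slope was called for 0 of all genes in the main fit. Where 0 of all genes were called, the count of members could not be other than 0. Under the stricter filter, which tested 9400 genes, 14 replication and 15 mitosis genes were tested. Quantile normalization and coding scaling moved the all-gene median of CPF minus DMSO from 0.15 to -0.03 and 0.01 and that of mitosis genes from 0.10 to -0.10 and -0.08. They moved the median difference in slope from 0.06 to -0.05 and -0.02 for mitosis genes and from 0.04 to -0.03 and -0.01 for replication genes, so these 3 medians changed sign. The median of replication genes for CPF minus DMSO went from -0.04 to 0.10 without the E12.5 pair, and the mitosis slope difference fell to about 0 without CPF E12.5. Of the 16 alternatives, the slope call was lost under 10 for Top2a, 8 for Mcm2, 7 for Pcna and Rrm2, 6 for Cenpf, 4 for Gins2, 3 for Mcm7, 2 for Mcm4, 1 for Mcm3 and Bub1b and 0 for Rrm1, Mcm10, Ccne1 and Cenpe. The fit for CPF minus DMSO pairs the libraries by stage (3 residual degrees of freedom), and without that term it called 0 members and 0 of all genes. The labels give no replicate numbers to block on.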
